A study of Mus musculus with 24 samples.

Results

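Embryoid bodies that had been exposed to the calcineurin inhibitors FK506 and cyclosporin A were compared with untreated embryoid bodies at day 8, the last day of the exposure. The comparison used 6 of the 24 arrays of the series, 3 treated and 3 untreated, and 19938 genes with a probe set of their own. An embryoid body is a floating aggregate of embryonic stem cells in which neural, mesodermal and endodermal cells arise together. All cells came from the 46C mouse embryonic stem cell line, which is known to carry a green fluorescent protein reporter at the Sox1 locus. The treated group received FK506 at 100 ng per ml together with cyclosporin A at 1 ug per ml from day 3 to day 8, and the untreated group received neither drug. Both groups were put into suspension on day 3 in embryonic stem cell medium, were plated onto culture dishes on day 7, and had their medium exchanged for a serum-free one on day 8. The labels do not say whether the day 8 samples were taken before or after that exchange. The other arrays held both groups at days 4, 6 and 12. Each group had 3 arrays, from 3 independent differentiation experiments of the same line. The p-values thus measure the spread between experiments with a single line, pooled over the groups of all 24 arrays. The 2 drugs were given together, so their effects cannot be told apart, and no array held a different inhibitor or a calcineurin mutant.

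Calcineurin is a calcium-dependent phosphatase, and its best known substrates are the NFAT transcription factors, which move to the nucleus once dephosphorylated. FK506 and cyclosporin A block it after binding small intracellular proteins called immunophilins. Bone morphogenetic proteins (BMPs) signal through receptor kinases and Smad proteins, favour epidermal, mesodermal and extraembryonic fates, and are held back by secreted antagonists where neural tissue forms. The title of the series sets calcineurin against the BMP pathway in neural induction.

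At day 8 the treated embryoid bodies had lower signals of many neural regulators. Some primed epiblast genes (5 of 18 called) and epithelial genes (8 of 25 called) were lower in these treated bodies too. Their signals of limb and lateral plate mesoderm genes, of mesenchymal genes, of many Hox genes outside the Hoxb cluster and of imprinted growth genes were higher. These gene groups were chosen with earlier results of these data known. In limma's moderated test with Benjamini-Hochberg adjustment over all genes, 968 genes were higher (4.86% of those tested) and 813 were lower (4.08%), which made 8.93% in all. A gene is called here when its adjusted p was below 0.05, and each difference is the treated mean minus the untreated mean of log2 signals. The difference reached 2-fold in 129 of the higher and 35 of the lower genes, and the median over all genes was -0.04. Of all 19938 genes, 7455 lay above 0 and 12483 below. Among the called genes, 963 of the 968 higher and 810 of the 813 lower moved the same way in all 3 experiments. The calls were made on these same arrays, so this agreement gives them no separate support. Centring each array on its median gave 1215 higher and 636 lower, which raised the higher share of the calls from 54.4% to 65.6%.

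Among called genes whose groups did not overlap, the largest rise was that of Tbx4, a T-box factor of the allantois and hindlimb. Its log2 signals were 9.04, 8.13 and 9.18 in untreated replicates 1, 2 and 3 and 11.88, 11.05 and 12.05 in treated replicates 1, 2 and 3. No treated array reached down to an untreated one, and the difference was 2.87 ± 0.24 (SE), or 7.32-fold (adjusted p = 9.60e-07). The next rises in that set were of Gpr50, an orphan receptor related to the melatonin receptors, at 2.27 and of Rbp4, the serum carrier of retinol, at 2.03. Apob, the main protein of low-density lipoproteins, rose by 1.99 and Hoxc6 by 1.98. Dpp4, a cell surface peptidase, rose by 1.93, the transcription factor gene Tfec by 1.92, the placental gene Plac1 by 1.86 and the protease-like gene Prss35 by 1.80. They were followed by Asb12 at 1.75, Bves, a membrane protein of muscle and epicardium, at 1.73, Hoxa13, Zfp9 and the thyroid hormone carrier gene Ttr at 1.69 each, and Rfx6, a factor of gut and pancreas endoderm, at 1.65. These 15 were chosen for groups that do not overlap, which left out larger rises such as that of Postn (2.96), where they did.

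The largest fall was that of Cer1, a secreted antagonist of Nodal, BMP and Wnt ligands. Its signals were 9.29, 10.56 and 10.92 in the untreated arrays and 6.80, 8.81 and 7.82 in the treated arrays, with no overlap. The difference was -2.45 ± 0.41 (SE), or 5.45-fold (adjusted p = 0.00144). The neuropeptide precursor gene Penk differed by -1.76, Pkd1l1, a polycystin gene, by -1.61, Trh, the precursor of thyrotropin-releasing hormone, by -1.42, and Lgi1, which encodes a secreted neuronal protein, by -1.38. The remaining falls of genes without overlap were of Trp53i11 (-1.31), Zic2 (-1.30), Dmrta1 (-1.24), Samd3 (-1.23), Tal2 (-1.13), Pappa (-1.10), Zic1 (-1.10), the glutamine transporter gene Slc38a3 (-1.09), Bhlhe41 (-1.09) and Irs4 (-1.07). These 15 were chosen in the same way, and the falls of Fgf5 (-1.61), Otx2 (-1.52) and Zic5 (-1.37) were larger than most of them.

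**Figure D1:**
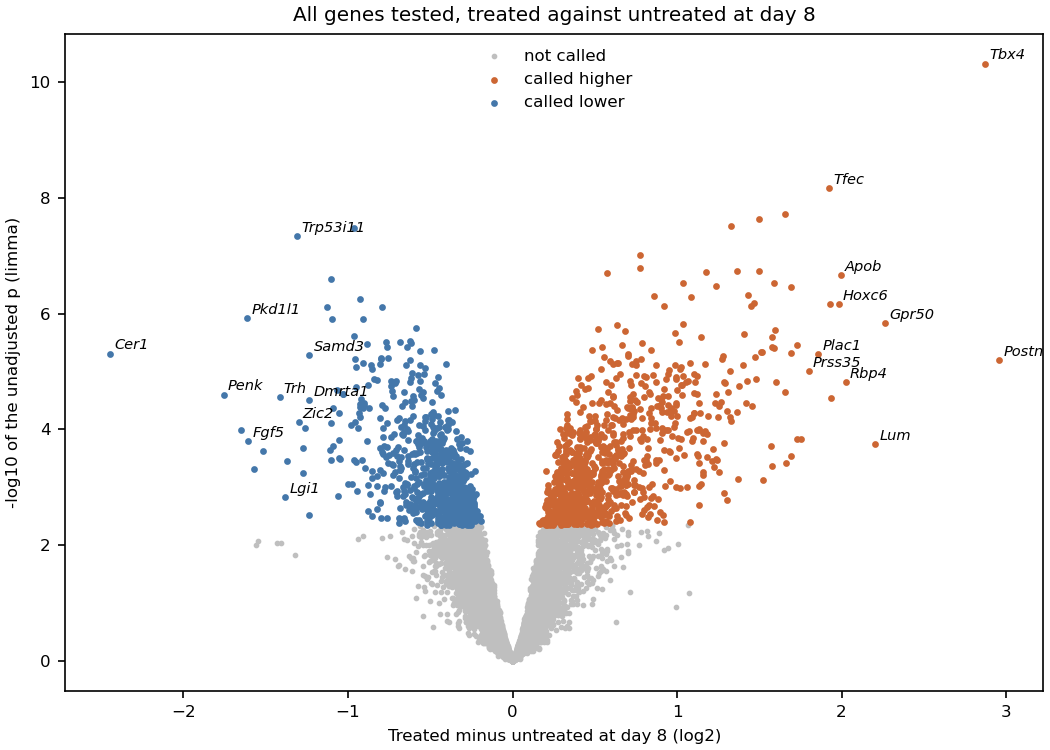
Each point is 1 of the 19938 genes, with the treated minus untreated difference at day 8 (log2) on the x axis and -log10 of limma's unadjusted p on the y axis; orange and blue points are the 968 genes called higher and the 813 called lower. Tbx4 at 2.87 stands apart at the top right, and Cer1 at -2.45 lies farthest to the left.

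The treated arrays differed in their distance from the untreated mean. The median of the called higher genes, taken over the mean of the 3 untreated arrays, was 0.72 in treated replicate 1, 0.22 in treated replicate 2 and 0.52 in treated replicate 3. For the called lower genes it was -0.55, -0.25 and -0.48, so treated replicate 2 lay closest to the untreated arrays in both directions. Untreated replicate 2 was itself at -0.14 for the higher and 0.08 for the lower genes. Taken against the untreated array of the same number, the medians in experiments 1, 2 and 3 were 0.60, 0.35 and 0.48 for the higher genes. They were -0.46, -0.32 and -0.50 for the lower genes. Leaving out an array moved the counts: dropping treated replicate 1 left 201 higher and 133 lower calls, dropping treated replicate 2 gave 1769 and 1898, and dropping treated replicate 3 left 386 and 238. The counts were 980 and 884 when untreated replicate 1 was dropped, 245 and 173 for untreated replicate 2, and 700 and 497 for untreated replicate 3. In all 6 of these fits 195 genes were called higher and 110 lower, among them 13 of the 15 rises and 13 of the 15 falls named above. The exceptions were Asb12 and Ttr, called in 4 of the 6, Lgi1 in 2 and Bhlhe41 in 5. Arrays of the same number deviated together in replicates 1 and 2 and weakly in replicate 3, and with the replicate number as a block 1386 genes were called higher and 1436 lower, of which 948 and 793 were also called without it. Counts of list members given below for any of these fits are to be read against its total over all 19938 genes. A fit to the 6 day 8 arrays alone, with 4 residual degrees of freedom, called 0 genes in limma, with 3969 at an unadjusted p under 0.05; the calls thus draw on the spread measured over all 24 arrays.

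Marker genes of cell types were read as a check of what the embryoid bodies held. Signals of a bulk sample cannot tell fewer cells of a type from less RNA per cell. Of 6 neural markers 5 were called lower and none higher, with mean log2 levels of 7.98 to 8.23 in the untreated and 7.54 to 7.60 in the treated arrays. All 3 mesenchyme markers and 3 of 4 endothelial markers were called higher, and so were 2 of 5 endoderm markers. Over all genes the shares called were 4.86% higher and 4.08% lower. The endothelial calls were lost without treated replicate 1 or untreated replicate 2. The pluripotency markers overlapped, at 10.48 to 10.83 untreated and 9.45 to 10.84 treated, with treated replicate 2 the highest of all 6 arrays. Of 3 lateral plate markers none was called, although the treated arrays at 11.30 to 11.62 lay above the untreated ones at 10.17 to 11.16. None of the 4 cardiac, 4 blood, 3 mesoderm or 3 surface ectoderm markers was called. Of 4 neuron markers Stmn2 was called lower, and of 2 trophoblast markers Ascl2 was.

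Neural transcription factors were lower as a group. Like the lists below, this one was chosen with earlier results of these data known, so its share set against all genes is no test. Of 20 early neural factors measured, 11 were called lower and 0 higher, against 4.08% lower among all genes, and their median difference was -0.39. Sox1, the earliest marker of neuroectoderm used for this line, had signals of 8.83, 8.92 and 8.87 in the untreated and 8.43, 8.45 and 8.51 in the treated arrays. These groups stood clear of each other with little spread within either, and the difference was -0.41 ± 0.09 (SE, adjusted p = 0.00531), a call kept in all 6 fits that left out an array. The zinc finger gene Zic1 read 7.40, 7.67 and 7.81 untreated and 6.50, 6.62 and 6.45 treated. Its difference was -1.10 ± 0.17 (SE, adjusted p = 0.000736), from -0.90 in experiment 1 to -1.36 in experiment 3. Pax6, which directs forebrain and eye development, read 7.37, 7.78 and 7.40 untreated and 7.09, 7.01 and 6.81 treated (difference -0.55 ± 0.16 SE, adjusted p = 0.0332, called in 3 of the 6 fits). Zic2, Zic5 and Pax3, the last a dorsal neural tube and neural crest factor, differed by -1.30, -1.37 and -0.86, and Irx5 by -0.46. The 11 calls became 4 without treated replicate 1, 5 without treated replicate 3 or untreated replicate 2, and 12 to 13 without untreated replicate 1 or treated replicate 2. Calls in the other direction appeared in some fits: 4 of the 20 were called higher without treated replicate 2, and 1 without untreated replicate 1 or with the block.

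Forebrain and eye field regulators were lower in the same way, with 10 of 17 called lower, 0 higher and a median of -0.50. Otx2, needed for forebrain and midbrain and present in the epiblast as well, read 11.41, 12.17 and 11.92 untreated and 9.23, 11.47 and 10.25 treated. Treated replicate 2 overlapped the untreated arrays, so the difference of -1.52 ± 0.34 (SE, adjusted p = 0.009) was called in 4 of the 6 fits. Emx2 (-0.68), Otx1 (-0.74), Sp8 (-0.66), Fezf2 (-0.79) and Fezf1 (-0.70) were lower without overlap between the groups, an arrangement that 14.2% of all genes showed. All 18 midbrain, hindbrain and spinal cord genes lay below 0, as did 12483 of all 19938 genes, and their median was -0.34. Of these 18, 5 were called lower. They included the midbrain factors En1 (-0.67) and Pax5 (-0.57), Gbx2 (-0.54) of the hindbrain, Lmx1b (-0.32) and the ventral factor Nkx2-2 (-0.37). With treated replicate 1 left out the counts were 2 of 17 and 1 of 18.

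Genes listed for neural progenitors, not all of them structural, were called in both directions. Of 18 genes 7 were called lower and 2 higher, with a median of -0.19. Prom1, a protein of apical membrane protrusions, read 9.39, 9.92 and 9.72 untreated and 8.12, 9.10 and 8.72 treated. All treated arrays were below the untreated ones by a difference of -1.03 ± 0.19 (SE, adjusted p = 0.00269). The cell adhesion gene Nrcam (-1.05), the receptor gene Notch1 (-0.49) and the phosphatase gene Ptprz1 (-0.74) were lower too. The endothelin receptor gene Ednrb (1.10) and the imprinted zinc finger gene Plagl1 (1.73) were higher. Neither encodes a structural protein, and Plagl1 is counted again among the imprinted growth genes below. Nes, which encodes the intermediate filament nestin, overlapped between the groups, at 8.54, 8.89 and 8.91 untreated and 8.90, 8.48 and 8.82 treated, with a difference of -0.05 ± 0.17 (SE, adjusted p = 0.901). Without treated replicate 1 or untreated replicate 2, 1 of the 18 was called lower.

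Genes of neuronal differentiation were called lower in 6 of 29 cases and higher in 0, with a median of -0.20. Map2, a dendritic microtubule protein, read 8.17, 8.49 and 8.39 untreated and 7.26, 7.80 and 7.58 treated (difference -0.80 ± 0.13 SE, adjusted p = 0.00154). The filament gene Ina (-0.80), the stathmin-like genes Stmn2 (-0.79) and Stmn3 (-0.64), the RNA-binding gene Elavl2 (-0.51) and Gad1 (-0.45), which makes GABA, were the other 5. Tubb3, the neuronal tubulin often used to stain neurons, was not called, with 7.57, 7.52 and 7.43 untreated and 7.82, 7.64 and 7.56 treated (difference 0.17 ± 0.10 SE, adjusted p = 0.322). Of 12 neural crest genes 4 were called higher and 2 lower: the mesenchymal factors Twist1 (1.17) and Snai2 (1.18), Ngfr (0.64) and Ets1 (0.51) were higher, and Pax3 and Erbb3 (-0.55) lower. Without treated replicate 1 or untreated replicate 2, 1 neuronal gene was called lower, and 1 crest gene was called each way.

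**Figure D2:**
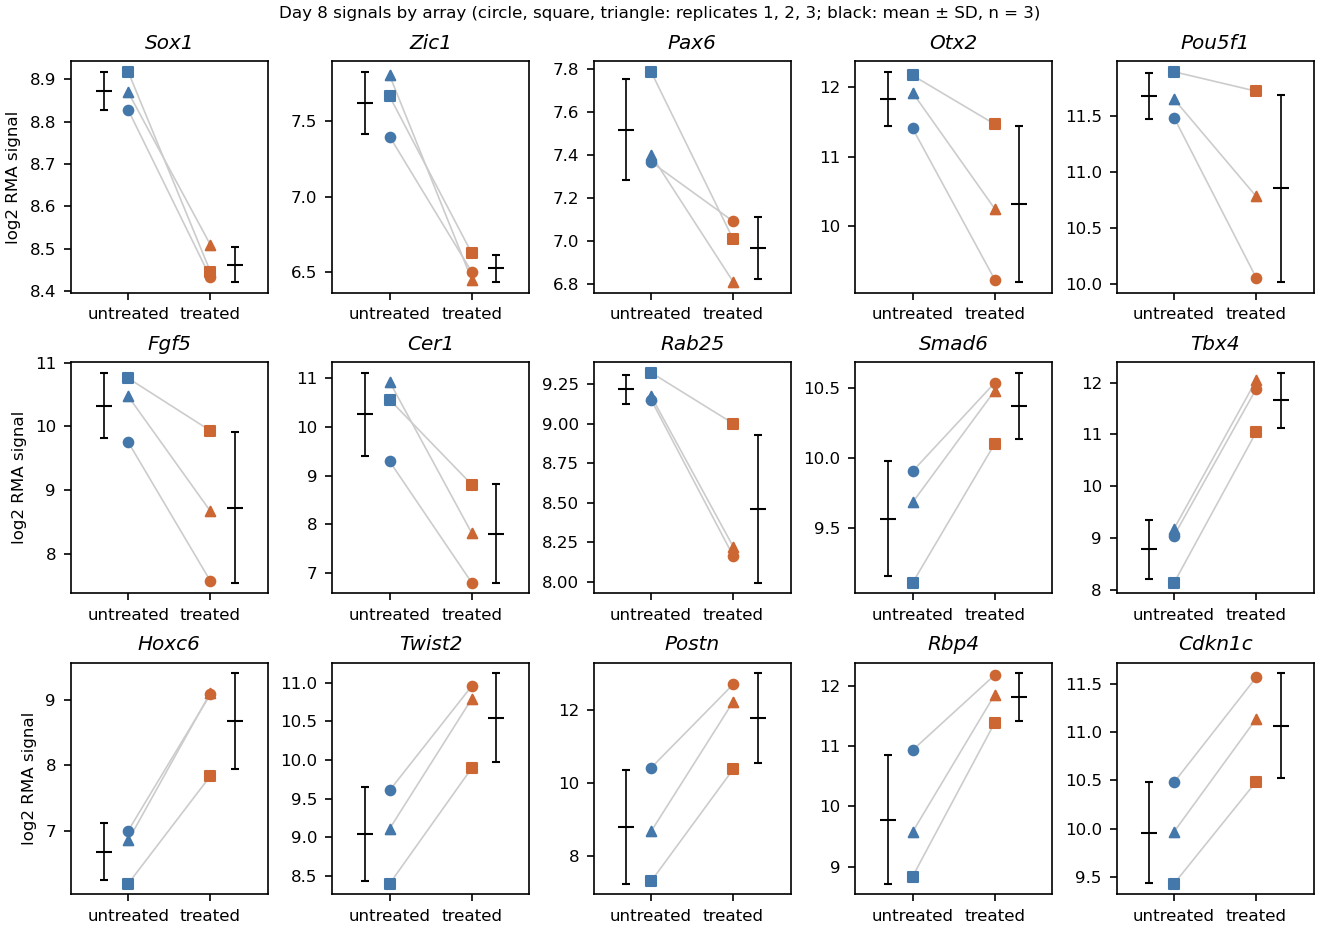
Log2 RMA signal of 15 genes in the 3 untreated (blue) and 3 treated (orange) day 8 arrays; marks are replicates 1 (circle), 2 (square) and 3 (triangle), grey lines join the same replicate number, and black bars are the mean ± SD of 3 arrays. Sox1 and Zic1 fall alike in all 3 experiments, whereas Otx2, Pou5f1, Fgf5 and Rab25 fall least in replicate 2.

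Direct targets of BMP and Smad signalling were higher for 8 of 24 measured genes and lower for 1, with a median of 0.31. Smad6, an inhibitory Smad that feeds back on the pathway, read 9.91, 9.11 and 9.69 untreated and 10.54, 10.10 and 10.48 treated. All treated arrays were above the untreated ones, and the difference was 0.81 ± 0.19 (SE, adjusted p = 0.0119). Smad7, the other inhibitory Smad, differed by 0.51, the decoy receptor gene Bambi by 0.74, the caudal factor Cdx2 by 0.89 and the cardiac T-box gene Tbx20 by 1.14. The Id genes, which encode inhibitors of basic helix-loop-helix factors and are the most widely used BMP readout, were not called. Id1 read 10.57, 10.24 and 10.44 untreated and 10.46, 10.60 and 10.45 treated (difference 0.09 ± 0.17 SE, adjusted p = 0.794), and Id3 differed by 0.08 ± 0.15 (SE). For Id2 the difference was 0.31 ± 0.13 (SE, adjusted p = 0.154), and for Msx2, a homeobox target, 0.59 ± 0.27 (SE, adjusted p = 0.183). The lower gene was Nog, which encodes the antagonist noggin (-0.44). The 8 higher calls became 1 without treated replicate 1 or 3, 0 without untreated replicate 2 and 11 with the replicate block.

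Among BMP ligands, receptors and signal-carrying Smads, 3 of 19 were higher and 1 lower, with a median of 0.11. The receptor genes Bmpr2 (0.44), Acvr1 (0.35) and Acvrl1 (0.26) rose, and the ligand gene Bmp8b (-0.50) fell. Bmp4 read 12.06, 11.44 and 11.93 untreated and 12.10, 12.14 and 12.08 treated, which left a small gap between the groups and a difference of 0.30 ± 0.16 (SE, adjusted p = 0.25). Secreted antagonists and modulators of BMPs were called lower in 5 of 19 cases and higher in 2. The lower ones were Cer1, Nog, Chrd (-0.45), which encodes chordin, Rgma (-0.49) and Tll1 (-0.39), and the higher ones the protease gene Htra1 (0.45) and Fstl1 (0.41). Chrd and Tll1 have opposite roles, since tolloid-like proteases cleave chordin, and Rgma is a BMP co-receptor, so the 5 lower genes do not share a direction of action. Chrd was chosen for naming after its value was seen. The antagonist list fell to 1 lower call without treated replicate 1 and the ligand and receptor list rose to 5 higher and 3 lower with the block.

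Of 16 genes of calcineurin and NFAT themselves 2 were called higher and 0 lower, with a median of 0.03: Nfat5 (0.39), the member of the family that calcineurin does not regulate, and Rcan2 (0.40), a calcineurin regulator. Rcan1, which is induced by NFAT in many cells, read 10.23, 9.97 and 10.05 untreated and 10.28, 10.05 and 10.05 treated (difference 0.04 ± 0.10 SE, adjusted p = 0.831). Nfatc1, another gene that NFAT can induce, differed by -0.04 ± 0.10 (SE), and the catalytic subunit genes Ppp3ca and Ppp3cb by 0.21 ± 0.08 and -0.07 ± 0.08 (SE). None of the last 4 was called. Of 17 immunophilin genes 1 was called higher (5.88%, against 4.86% of all genes), the cyclophilin gene Ppic (1.08 ± 0.18 SE, adjusted p = 0.00156). When treated replicate 1 was left out the counts were 0 of 16 and 1 of 17.

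Lateral plate and allantois genes had the highest median of the lists, 0.77, with 9 of 21 called higher and 0 lower. Of the 21, 20 lay above 0, against 7455 of all 19938 genes. Beside Tbx4, the hindlimb factor Pitx1 read 8.71, 7.98 and 8.47 untreated and 10.39, 9.43 and 10.30 treated (difference 1.65 ± 0.19 SE, adjusted p = 0.000109). The limb mesenchyme factor Prrx1 (1.29), the heart and limb factor Hand2 (1.16), Capn6 (1.25) and Ahnak (0.82) were higher as well. Hand1, a factor of lateral plate and trophoblast, read 11.66, 10.21 and 11.43 untreated and 12.24, 11.76 and 11.91 treated (difference 0.87 ± 0.30 SE, adjusted p = 0.0736). Foxf1, a factor of splanchnic mesoderm, differed by 0.77 ± 0.27 (SE, adjusted p = 0.0805), and neither gene was called. In both, all treated arrays lay above the untreated ones, an arrangement that 9.37% of all genes showed. With the replicate block 16 of 21 were called higher, and without treated replicate 1 or untreated replicate 2 the count was 3.

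Mesenchyme and smooth muscle genes were higher in 11 of 20 cases and lower in 0, with a median of 0.55. Postn, a matrix protein of periosteum and connective tissue, read 10.41, 7.32 and 8.68 untreated and 12.69, 10.38 and 12.22 treated. The groups overlapped because untreated replicate 1 was slightly above treated replicate 2, yet Postn rose in every experiment (difference 2.96 ± 0.50 SE, adjusted p = 0.00156, called in all 6 fits). Twist2, a regulator of mesenchymal and dermal cells, read 9.61, 8.40 and 9.11 untreated and 10.96, 9.90 and 10.79 treated (difference 1.51 ± 0.25 SE, adjusted p = 0.00142). The platelet-derived growth factor receptor gene Pdgfrb (1.14), the proteoglycan gene Lum (2.20), Twist1 and Snai2 were the others named by the rule. Of 19 collagen and matrix genes 5 were higher and 1 lower, with a median of 0.29. Col1a1, the chief chain of fibrillar collagen, read 10.00, 9.36 and 9.56 untreated and 11.51, 10.44 and 11.20 treated (difference 1.41 ± 0.22 SE, adjusted p = 0.00105). Col1a2 (1.14), Col4a1 (0.44), Lamb1 (0.41) and Sparc (0.39) were also higher, and the cartilage collagen gene Col2a1 (-0.33) lower. Without treated replicate 1 or untreated replicate 2 the mesenchyme count was 3, the matrix count 1 and 2, and with the block 9 matrix genes were called higher.

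Endothelial genes were called higher in 6 of 23 cases, with a median of 0.23, among them the receptor gene Tek (1.37), the junction cadherin gene Cdh5 (1.29), Emcn (1.53), Esam (0.68), Eng (0.56) and Pecam1 (0.54). Cdh5 read 9.45, 7.67 and 9.10 untreated and 10.50, 9.04 and 10.54 treated, so the rise was seen in each experiment while treated replicate 2 stayed under 2 of the untreated arrays. None of the 6 was called without treated replicate 1 or untreated replicate 2, and 13 were without treated replicate 2. Of 20 blood genes Cd34, a progenitor surface marker shared with endothelium, was higher (1.19), and Myb (-0.74) and Lmo2 (-0.56) were lower. Of 25 cardiac muscle genes 1 was called, the calcium release channel gene Ryr2 (0.54), with a list median of -0.04. Primitive streak and mesendoderm genes were called lower in 2 of 20 cases, Cer1 and Lhx1 (-1.24), and higher in 1, Cdx2, with a median of -0.35. Mixl1, a streak gene, scattered from 10.16 to 11.40 untreated and from 9.11 to 11.47 treated (difference -0.55 ± 0.38 SE, adjusted p = 0.406). Of 18 posterior and paraxial mesoderm genes 2 were higher, Wnt5a (1.25) and Cdx2, and 3 lower, Lfng (-0.71), Dll3 (-0.76) and Hes7 (-0.33), the last 3 being parts of the somite clock. Among all genes 4.86% were called higher and 4.08% lower. The shares were 4% and 0% in the cardiac list and 5% and 10% in the blood and streak lists. The counts of 1 to 3 in these lists moved with single arrays. The streak list had 10 lower calls without treated replicate 2, 6 without untreated replicate 1, 5 with the block and 1 in the other fits, with a median from -0.47 to -0.12. The lower calls of the posterior list were 0 without treated replicate 1 or untreated replicate 2 and 4 without treated replicate 2. Between 0 and 5 cardiac genes were called higher, the 5 without untreated replicate 1, and the blood list had 0 to 3 higher and 1 to 4 lower calls.

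**Figure D3:**
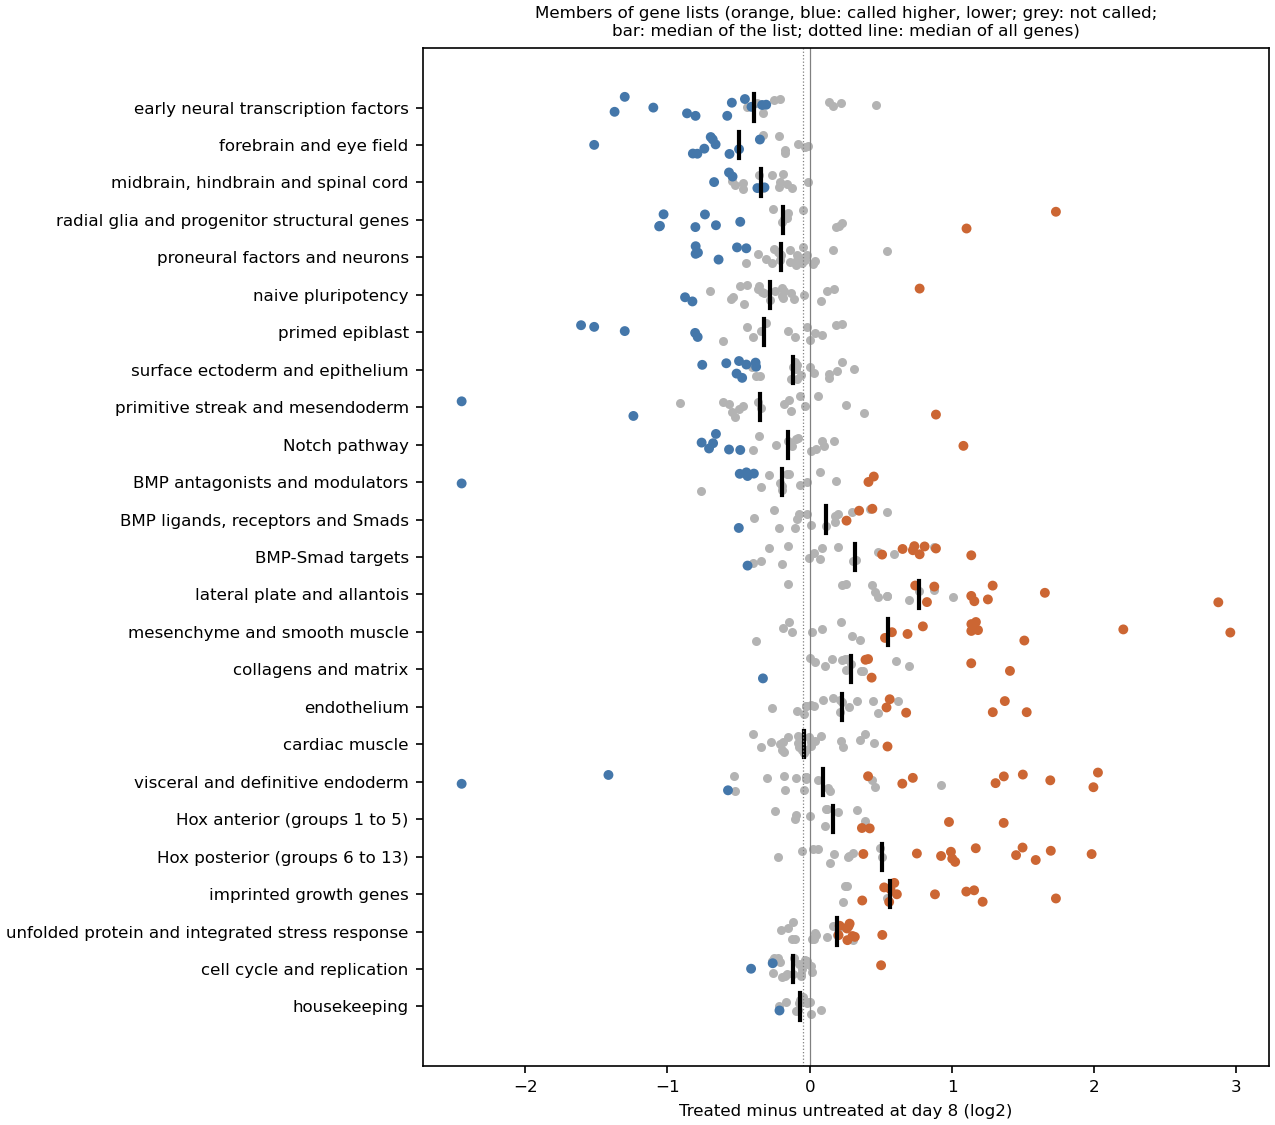
Treated minus untreated difference at day 8 (log2, x axis) of every measured member of 25 gene lists (y axis); orange and blue points are genes called higher and lower, grey points were not called, black bars are list medians, and the dotted line is the median of all genes at -0.04. The forebrain list (median -0.50) lies wholly below 0 and the imprinted growth genes (median 0.57) wholly above it.

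Endoderm genes moved in both directions, with 9 of 28 called higher and 3 lower. Those that were higher encode mainly serum and transport proteins of the visceral endoderm, the outer cell layer of an embryoid body. Rbp4 read 10.93, 8.83 and 9.57 untreated and 12.18, 11.39 and 11.85 treated (difference 2.03 ± 0.37 SE, adjusted p = 0.00209). Apom (1.50), the endocytic adaptor gene Dab2 (1.36) and the liver and gut factor Hnf4a (0.65) rose with Apob. Trh, Cer1 and Hhex (-0.57), a homeobox factor of anterior endoderm named after its value was seen, were lower. Without single arrays 6 to 10 of these genes were called higher and 3 to 4 lower. Of 19 trophoblast genes 2 were higher, Plac1 and Cdx2, and 3 lower, Krt7 (-0.38), Ascl2 (-0.59) and Wnt7b (-0.28). These are 10.5% and 15.8%, against 4.86% and 4.08% of all genes. With the block 6 were called each way, against 1386 higher and 1436 lower of all 19938 genes.

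Naive pluripotency genes were called higher in 1 of 25 cases (4%) and lower in 2 (8%), against 4.86% and 4.08% of all genes. Of the 25, 21 lay below 0, against 12483 of all 19938 genes, and the list median was -0.28. Pou5f1, a core pluripotency factor, read 11.49, 11.90 and 11.65 untreated and 10.06, 11.72 and 10.79 treated. Treated replicate 2 lay among the untreated arrays, treated replicate 1 far below them, and the difference was -0.82 ± 0.24 (SE, adjusted p = 0.0344, called in 2 of the 6 fits). Nanog read 12.08, 12.52 and 12.11 untreated and 11.11, 12.35 and 11.64 treated (difference -0.54 ± 0.20 SE, adjusted p = 0.102). Utf1 was lower (-0.88) and Tbx3, also a BMP target, was higher (0.77). Without treated replicate 2, 16 of the 25 were called lower, without treated replicate 1 or 3 or untreated replicate 2 or 3 none was, and with the block 6 were. Primed epiblast genes, which mark the later pluripotent state, were lower in 5 of 18 cases. Fgf5, the growth factor that defines this state, read 9.75, 10.76 and 10.48 untreated and 7.57, 9.93 and 8.67 treated (difference -1.61 ± 0.35 SE, adjusted p = 0.00713). The others were Zic2, Otx2, Sall2 (-0.79) and the DNA methyltransferase gene Dnmt3b (-0.81). Zic2 and Otx2 are counted in the neural lists above as well. The 5 calls became 2 without treated replicate 1, 1 without untreated replicate 2, and 9 with the block or without treated replicate 2. Of 10 Nodal pathway genes Lefty1 (-0.85), a Nodal antagonist and target, was lower, and Smad2 (0.29) and Acvr1b (0.32) were higher; with the block 3 were lower and 3 higher. Of 18 germline genes limma called 0, and their median was -0.18. An unadjusted p under 0.05 in limma was found for 2 of the 18, against 4834 of all 19938 genes. With the block 1 was called each way, against 1386 higher and 1436 lower among all genes.

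The array also carries probe sets for microRNA genes, which read the gene or its precursor and cannot tell the mature arms apart. The Mir302 and Mir367 genes, which lie in a single cluster and are abundant in pluripotent cells, were picked out after their values were seen. The mature sequences that carry their targeting are shown with the seed (bases 2 to 8) in capitals, from RefSeq with build GRCm38.p6, because the seed sets which messages a microRNA can bind.
miR-302b-3p: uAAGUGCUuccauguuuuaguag
miR-302d-3p: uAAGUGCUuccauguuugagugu
miR-302c-3p: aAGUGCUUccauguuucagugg
miR-367-3p: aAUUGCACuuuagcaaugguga
miR-363-3p: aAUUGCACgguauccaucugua
The first 2 share a seed, the third is shifted by a single base against it, and the last 2 share another seed although Mir363 belongs to a different cluster. The Mir302c signals were 9.45, 10.76 and 10.55 untreated and 7.49, 10.00 and 8.61 treated, high in treated replicate 2 and low in treated replicate 1, as for Pou5f1. Over the 5 genes of the cluster the difference lay between -1.56 and -1.32. None was called in the fit without the block; with it all 5 were, for example Mir367 at an adjusted p of 3.2e-05 against 0.0734 without. Mir363 read 6.61, 8.18 and 7.77 untreated and 5.21, 7.00 and 5.63 treated, and its difference of -1.57 ± 0.38 (SE, adjusted p = 0.0133) was called in 2 of the 6 fits.

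Genes of epithelial cells were called lower in 8 of 25 cases and higher in 0, with a median of -0.12. Rab25, which sorts membrane in epithelia, read 9.15, 9.32 and 9.18 untreated and 8.16, 9.00 and 8.22 treated (difference -0.76 ± 0.18 SE, adjusted p = 0.0115). All treated arrays were below the untreated ones, with treated replicate 2 nearest to them. The junction genes Cldn3 (-0.50) and Cdh1 (-0.45), which encodes E-cadherin, the protease inhibitor genes Spint1 (-0.48) and Spint2 (-0.38), and Krt7 were lower too. Cldn4 (-0.51) and the splicing regulator gene Esrp1 (-0.59), named after their values were seen, complete the 8. The keratin genes of basal epidermis were among those not called. Without treated replicate 1 or untreated replicate 2 none of the 25 was called, and without treated replicate 2, 11 were.

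The list was also read for a sequence feature of its promoters, since Zeb, Snail and Twist family factors bind E-boxes. The motif CACCTG was searched on both strands from 250 bases before to 50 after the gene start in RefSeq's build GRCm38.p6. It was found in 12 of the 17 promoters of epithelial genes in the table (70.6%), against 2994 of all 15563 (19.2%). Other motifs searched in these 17 also differed from their shares over all genes: the Smad box CAGAC stood in 12 (70.6% against 48.6%) and the Sox core ACAAT in 0 (against 26.4%). Of the 6 epithelial genes that were called lower and had a promoter, 5 held CACCTG. It stood in 27.8% of the promoters of called lower genes and 14.5% of those of called higher genes. In the other lists searched its share ran from 0%, as in 0 of 15 early neural promoters, to 37.5%, in 6 of 16 naive pluripotency promoters. The promoters of Rab25, Cldn4 and Spint2 are shown because their motifs lie within the 250 bases before the start; each is written 5' to 3' on the gene's strand, with the motif or its reverse complement in capitals.
Rab25, chr3:88548280-88548529, minus strand: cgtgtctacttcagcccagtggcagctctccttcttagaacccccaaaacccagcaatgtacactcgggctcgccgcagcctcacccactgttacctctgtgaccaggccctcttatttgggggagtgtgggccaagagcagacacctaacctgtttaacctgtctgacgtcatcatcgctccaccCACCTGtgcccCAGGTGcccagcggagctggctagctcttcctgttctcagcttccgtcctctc
Cldn4, chr5:134946935-134947184, minus strand: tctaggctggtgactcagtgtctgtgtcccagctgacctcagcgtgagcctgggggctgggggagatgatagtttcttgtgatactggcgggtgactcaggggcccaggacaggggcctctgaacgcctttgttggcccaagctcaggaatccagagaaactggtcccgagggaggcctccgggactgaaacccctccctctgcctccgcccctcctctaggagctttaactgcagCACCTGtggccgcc
Spint2, chr7:29281978-29282227, minus strand: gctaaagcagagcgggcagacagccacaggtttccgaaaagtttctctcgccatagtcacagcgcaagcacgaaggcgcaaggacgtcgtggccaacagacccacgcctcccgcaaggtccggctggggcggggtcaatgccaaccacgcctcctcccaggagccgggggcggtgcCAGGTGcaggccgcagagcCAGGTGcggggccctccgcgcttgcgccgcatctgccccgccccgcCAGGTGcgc
A match describes letters only. Of the E-box binding genes, Zeb1 (0.53), Snai2 and Twist1 were called higher, Snai1 and Zeb2, named after their values were seen, differed by 0.25 and 0.22 without a call, and whether any of them binds here was not measured. Among 15 regulators of epithelial-mesenchymal transition 4 were higher and 2 lower, which counts Cdh11 (0.64) and Cdh1 as readouts; none was called without treated replicate 1 or untreated replicate 2. Over the called genes, the BMP-Smad element GGCGCC stood in 23.2% of higher, 22.0% of lower and 16.5% of all promoters, the Smad box in 49.7%, 49.1% and 48.6%, the NFAT core GGAAAA in 19.2%, 22.6% and 22.4%, and the Sox core in 18.4%, 23.4% and 26.4%. Among the BMP-Smad target genes 6 of 15 promoters held GGCGCC.

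Hox genes, which set position along the body axis, were called higher in 16 of 37 cases and lower in 0. Of 23 genes of paralogue groups 6 to 13, 12 were higher, with a median of 0.50, and of 14 genes of groups 1 to 5, 4 were, with a median of 0.16. Hoxc6 read 7.01, 6.21 and 6.86 untreated and 9.08, 7.84 and 9.10 treated (difference 1.98 ± 0.29 SE, adjusted p = 0.000512). Hoxa13, the most posterior gene of its cluster, read 7.67, 6.99 and 7.49 untreated and 9.71, 8.24 and 9.28 treated (difference 1.69 ± 0.23 SE, adjusted p = 0.000368). Both stood well clear of the untreated arrays. Hoxd8 (1.50), Hoxa9 (1.59), Hoxc8 (1.45) and Hoxd9 (0.75) followed, and of the anterior genes Hoxc5 (1.36), Hoxd4 (0.98), Hoxc4 (0.42) and Hoxa5 (0.37). By cluster, 6 of 10 Hoxa, 0 of 9 Hoxb, 6 of 9 Hoxc and 4 of 9 Hoxd genes were called higher. Hoxb genes lay between -0.24 and 0.39, and 3 of them were called with the replicate block. The posterior count was 8 to 17 without single arrays and 17 with the block.

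**Figure D4:**
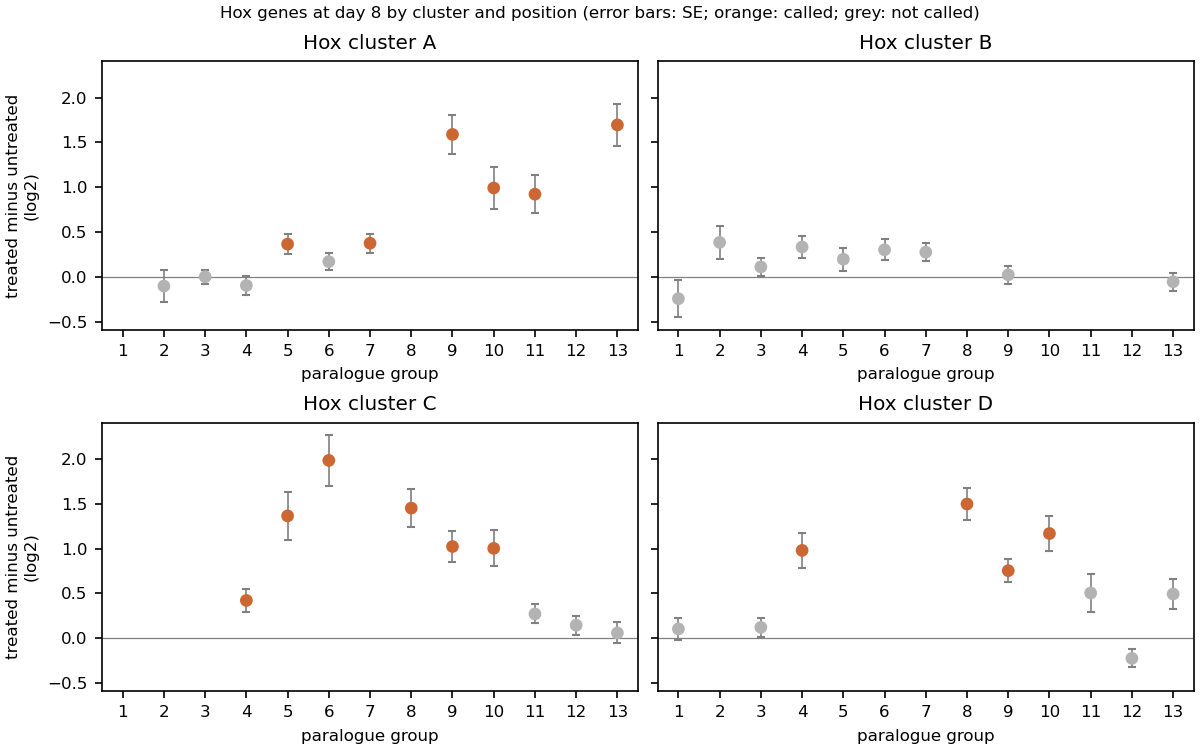
Treated minus untreated difference at day 8 (log2, y axis) of Hox genes by paralogue group (x axis) in the 4 clusters; error bars are SE, orange points were called and grey ones were not. The calls run from group 5 to group 13 in cluster A and from group 4 to group 10 in clusters C and D, and cluster B has none, with its genes between -0.24 and 0.39.

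Imprinted growth genes, which are read from a single parental copy and act on fetal and placental growth, were called higher in 11 of 15 cases and lower in 0. Their median was 0.57 and all 15 lay above 0, against 7455 of all 19938 genes. Cdkn1c, a cell cycle inhibitor, read 10.48, 9.43 and 9.97 untreated and 11.56, 10.49 and 11.14 treated. The rise was of like size in each experiment, and the difference was 1.10 ± 0.22 (SE, adjusted p = 0.00388). Plagl1, a regulator of this gene set, differed by 1.73, the growth factor receptor gene Igf2r by 0.88, the amino acid transporter gene Slc38a4 by 0.56 and Sgce by 0.61. Dlk1, a Notch-like inhibitor of differentiation, read 11.66, 10.28 and 10.96 untreated and 12.69, 11.46 and 12.40 treated (difference 1.22 ± 0.27 SE, adjusted p = 0.00865). Of the 15, 4 were called without treated replicate 1 or untreated replicate 2.

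Dlk1 opens an imprinted region that ends with Dio3 and holds long noncoding RNAs and many microRNA genes, which led to all genes between them being read, a choice made after values had been seen. Of 48 genes tested there 23 were called higher (4.86% among all genes) and 0 lower. All 48 lay above 0, from 0.04 to 1.22 (7455 of 19938 among all genes). Of its 40 microRNA genes 18 were higher, and in 32 the treated arrays did not reach down to the untreated ones (9.37% among all genes). Of the 257 other microRNA genes 4 were higher and 5 lower. The long noncoding RNA gene Meg3 read 11.52, 11.52 and 11.67 untreated and 12.09, 11.73 and 12.002 treated (difference 0.37 ± 0.09 SE, adjusted p = 0.0176), and Rian differed by 0.54. Genes of this region may share a transcript, so they are not independent of each other. Mature sequences are shown for Mir379, Mir411 and Mir380, with differences of 0.91 to 1.15, and for Mir376b and Mir376c, at 0.57 each, of which only Mir376c was called. They were chosen to show which share a seed, again from RefSeq with seeds in capitals.
miR-379-3p: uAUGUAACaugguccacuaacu
miR-411-3p: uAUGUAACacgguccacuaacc
miR-380-3p: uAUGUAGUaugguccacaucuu
miR-376b-5p: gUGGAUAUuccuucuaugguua
miR-376c-5p: gUGGAUAUuccuucuauguuua
The first pair and the last pair each share a seed, and the sequence of miR-380-3p is close to the first pair with another seed. Mir380 read 7.02, 7.28 and 7.31 untreated and 8.55, 8.05 and 8.46 treated (difference 1.15 ± 0.18 SE, adjusted p = 0.00113, called in all 6 fits). Mir411 differed by 0.91 ± 0.19 (SE, adjusted p = 0.00539), and Mir379 by 1.07 ± 0.34 (SE), just past the threshold at an adjusted p of 0.0501. The median over the region was 0.59, 0.23 and 0.45 in experiments 1, 2 and 3.

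**Figure D5:**
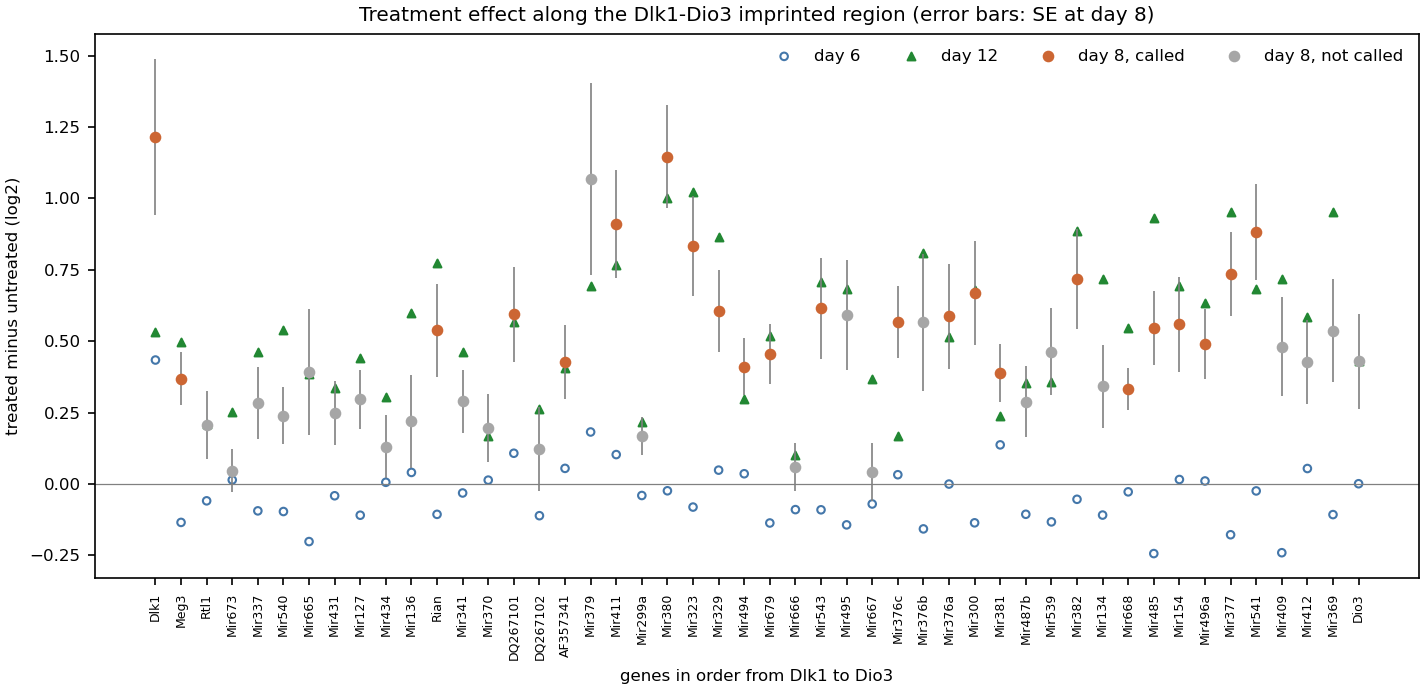
Treated minus untreated difference (log2, y axis) of the 48 genes from Dlk1 to Dio3 in chromosome order (x axis); filled circles are day 8 with SE bars, orange if called and grey if not, open blue circles are day 6 and green triangles day 12. At day 8 all genes lie above 0, while at day 6 they scatter between -0.24 and 0.43 and none is called; the difference of effects between the days was called for 1 of the 48, Mir380.

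Signalling genes outside the BMP pathway were called in both directions. Of 22 FGF and ERK response genes 6 were lower and 2 higher, with the feedback inhibitors Spry1 (-0.47), Dusp4 (-0.56) and Il17rd (-0.49) among the lower and the receptor genes Fgfr2 (0.57) and Fgfr4 (0.48) the higher. Of 19 Notch pathway genes 6 were lower, including the ligand gene Jag1 (-0.68), Notch1, Nrarp (-0.57), Lfng and Dll3, and 1 was higher, Hey2 (1.08). Of 16 Wnt response genes 3 were lower, Lgr5 (-0.95), Sp8 and Nkd2 (-0.38). Of 33 Wnt ligand, receptor and antagonist genes 5 were higher and 8 lower, led by Wnt5a, Fzd4 (0.95) and Dkk3 (0.63) among the higher and Fzd8 (-0.75), Fzd5 (-0.73) and Sfrp4 (-0.64) among the lower. Of 46 axon guidance genes 8 were higher, such as Efnb1 (0.87), Unc5b (0.71), Efnb3 (0.84) and Nrp2 (0.77), and 9 lower, such as Sema3a (-1.06) and Sema3c (-0.98). Of 15 retinoic acid genes 3 were higher, Rbp4, Rarg (0.37) and Rdh10 (0.42), and 2 lower, Stra6 (-0.40) and Cyp26c1 (-0.47). Without treated replicate 1 the lower counts of the FGF, Notch, Wnt ligand and guidance lists were 1, 0, 2 and 3.

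Of 23 genes of the unfolded protein and integrated stress responses 9 were higher and 0 lower, by small amounts, with a median of 0.19. Dnajc3 read 9.83, 9.65 and 9.75 untreated and 10.54, 9.94 and 10.28 treated (difference 0.51 ± 0.11 SE, adjusted p = 0.00552), and the transcription factor gene Xbp1 (0.32) and Hspa5 (0.28), which encodes the chaperone BiP, were higher too. The others were Pdia4, Pdia6 and Hsp90b1, which act in protein folding, and Pdia3, Calr and Dnajb11, named after their values were seen. Atf4 (-0.13) and Ddit3 (0.01) of the integrated stress response, also named after their values were seen, were not called. Of 21 hypoxia and glycolysis genes 6 were lower and 0 higher, with a median of -0.17, among them Pfkl (-0.34), Aldoc (-0.52) and the peptide gene Adm (-0.57). Both counts were 0 without treated replicate 1. Of 23 cell cycle genes 2 were lower (8.70%, against 4.08% of all genes), Ccne1 (-0.41) and Mcm2 (-0.26). Ccne2 (0.50) was the 1 higher gene (4.35%, against 4.86%), and with the block 8 were lower. Without treated replicate 2, 10 cell cycle genes were lower, and none was without treated replicate 1 or 3 or untreated replicate 2. Of 22 sterol and fatty acid genes Sc5d (0.30) was higher, of 12 p53 response genes Sesn1 (0.28) was higher, of 21 immediate early genes Ier3 (-0.64) and Btg2 (-0.42) were lower, of 18 interferon-stimulated genes Bst2 (-0.54) was lower, and of 13 housekeeping genes Gusb (-0.21) was lower. With 4.86% of all genes called higher and 4.08% lower, the 1 or 2 calls in each of these last 5 lists were near the shares over all genes.

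The effect at day 8 was set against the effects at day 6 and day 12 by testing the difference of effects, which compares separate sets of arrays. Day 6 against day 8 differed for 44 genes with a higher and 36 with a lower effect at day 8 (0.401% of genes in all). Both groups were plated on day 7, between these days, so plating cannot be told apart from time or longer exposure. Tbx4 had no effect at day 6 (-0.08), and its effect at day 8 was larger by 2.95 ± 0.34 (SE, adjusted p = 0.000305). Hoxa9 and Hoxc8 differed by 1.65 and 1.54, Zic1 by -1.15. Foxf1, at 2.69 above untreated on day 6, differed by -1.92 ± 0.38 (SE, adjusted p = 0.0269). The BMP pathway genes Msx2, Bmp4 and Id1 were higher by 2.12, 1.20 and 0.72 at day 6, each called there (1.26% of genes were called higher at day 6, 0.577% lower and 1.84% in all). At day 8 none of the 3 was called, and the difference of effects was -1.53, -0.91 and -0.63 (adjusted p = 0.0754, 0.0653 and 0.305), so a change between the days was not called either. Of 24 BMP-Smad targets 13 were called higher at day 6 and 8 at day 8, and 1 of the 24, the BMP-binding modulator gene Bmper, had a called difference of effects (-1.54 ± 0.28 SE, adjusted p = 0.021; named after its value was seen).

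After withdrawal, at day 12, 525 genes had a higher and 512 a lower effect than at day 8 (2.63% and 2.57% of genes, 5.2% in all). Pou5f1, called lower at day 8, and Nanog, not called there, were above untreated at day 12 by 1.16 and 1.20, and the difference of effects was 1.98 ± 0.34 (SE, adjusted p = 0.00217) and 1.74 ± 0.29 (SE, adjusted p = 0.00168). The neural genes Nes and Tubb3, not called at day 8, were lower at day 12 by -1.09 and -0.87, with differences of -1.04 and -1.03. Of 29 neuronal genes 26 were lower at day 12 (10.4% of genes were called lower there) against 6 at day 8, and 15 of the 29 had a called difference. Between days 8 and 12 the drugs were removed and the medium was changed, so these cannot be told apart from time. In the region from Dlk1 to Dio3 34 of the 48 genes were higher at day 12 (7.49% of all genes) and none had a called difference from day 8; from day 6 to day 8 the difference of effects was called for 1, Mir380 (1.17 ± 0.26 SE, adjusted p = 0.0476).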

How the data were processed

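The values were log2 signals of Affymetrix Mouse Gene ST 1.0 arrays, computed by the authors with RMA in Affymetrix Expression Console, per the submitters' processing notes; the log2 scale was read from the deposited values. RMA normalizes all arrays together, which can shrink a shift shared by most genes, and the table has no detection calls. No label names a software version or the array's genome build. Of 35556 probe sets, 21789 carried 1 gene symbol, 1621 several and 12146 none; the brightest single-symbol probe set stood for each of the 999 genes with more than 1, giving 19938 genes. GEO's platform annotation named them, and 21698 were matched by Entrez identifier.

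limma 3.58.1 in R 4.3.3 fitted 8 group means to all 24 arrays (16 residual degrees of freedom), with Benjamini-Hochberg adjustment over all genes and a threshold of 0.05; the fit was tested on simulated data. The alternatives kept genes above percentile 40 of mean level, used quantile normalization or median centring, averaged a gene's probe sets, set limma's prior to follow intensity robustly, weighted the arrays, added the replicate block, fitted the day 8 arrays alone, left out each day 8 array or asked for a 2-fold difference. Deviations of same-numbered arrays from their group means correlated at 0.48, 0.55 and 0.11 for replicates 1, 2 and 3, all above 0.1, although treated replicate 3 was slightly closer to untreated replicate 1 (0.13), and on these correlations same-numbered arrays were treated as paired in the block. No 2 arrays were identical. No batch is named in the labels. Precision is limited by 3 arrays a group.

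Genes named are the 15 largest rises and falls among called genes whose groups do not overlap (clone names and small RNAs passed over), 20 fixed genes and up to 6 members with the smallest p of each of 44 gene lists; others are said to be named after their values were seen. The members and lists were chosen with earlier results of these data known. Of 834 listed genes 40 were not analysed here. Sequences are from RefSeq (GRCm38.p6): 271 of 297 microRNA genes and 15563 genes' promoters were matched, and where a gene has several starts the first listed was used.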

Additional observations from a re-analysis of the deposited data

Results flagged for a closer look

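Among the named genes, 18 had a treatment effect at day 8 that differed from the effect at day 6 in limma's test of the difference itself (adjusted over all genes). The effect was larger at day 8, by a log2 difference of 2.95 for Tbx4, 1.75 for Apob, 1.65 for Tfec, 1.58 for Pitx1, 1.60 for Cd34, 1.59 for Dab2, 1.44 for Apom, 1.16 for Hoxd8, 1.65 for Hoxa9 and 1.54 for Hoxc8. All 10 were called higher at day 8. It was lower at day 8, by -1.50 for Dmrta1, -1.13 for Pappa, -1.15 for Zic1, -0.84 for Gbx2, -1.25 for Lgr5, -0.99 for Tnfrsf19, -1.54 for Sema3a and -1.92 for Foxf1. All of these but Tnfrsf19 and Foxf1 were called lower at day 8, and Foxf1 was higher at day 6 and uncalled at day 8. The replicate block kept all 18, as did the fits without treated replicate 2 or untreated replicate 1. Without treated replicate 1, treated replicate 3, untreated replicate 2 and untreated replicate 3, 2, 5, 6 and 3 of the 18 were called, and 2 were called in all 6 of these fits, Tbx4 and Dab2. A fit to the 12 arrays of days 6 and 8 called 2.

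For 46 named genes the effect at day 12 differed from that at day 8. The effect was higher at day 12 for the naive or primed pluripotency genes Pou5f1 by 1.98, Nanog by 1.74, Fgf5 by 2.02, Utf1 by 2.03, Tdgf1 by 1.47 and Dnmt3b by 1.22, for the secreted antagonist genes Cer1 by 2.78 and Lefty1 by 1.59, and for the germline genes Taf7l by 0.48 and Tdrd12 by 1.29. It was also higher for Trp53i11 (0.86), Pax3 (0.87), Tll1 (0.68), Hes7 (0.55), Myb (0.78), Spint2 (0.63), Fzd8 (1.02), Fzd5 (0.71), Sema3a (1.43), Ier3 (0.51), Gusb (0.41) and the interferon-stimulated genes Ddx58 (0.80), Ifitm1 (0.66) and Ifitm3 (0.73).

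Of the neural lists, these genes had a lower effect at day 12: Nes by -1.04, Tubb3 by -1.03, Fezf1 by -1.40, Nkx2-2 by -1.18 and Ptprz1 by -1.40. Several genes that were higher at day 8 had a lower effect at day 12, with differences of -1.66 for Bves, -1.41 for Ednrb, -0.62 for Ngfr, -1.31 for Twist1, -1.46 for Wnt5a, -1.28 for Cd34, -2.54 for Postn, -1.04 for Apom, -0.90 for Fgfr2, -1.18 for Hey2, -0.93 for Efnb3, -0.62 for Sgce and -1.31 for Cdkn1c. The Wnt target gene Apcdd1 differed by -1.70, and the sterol genes Sc5d, Cyp51 and Hmgcs1 by -0.53, -0.60 and -0.51. All 46 were called with the replicate block, 29 without treated replicate 1 or 3, 28 without untreated replicate 2, and 26 in all 6 fits that left out a day 8 array. The 12 arrays of days 8 and 12 alone called 10.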

How the results depend on the processing

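At day 8 the array weights gave 2140 higher and 3018 lower genes, the replicate block 1436 lower, the day 8 arrays alone 0 and 0, and the 2-fold minimum 129 and 35. Without single arrays the counts ran from 201 to 1769 higher and 133 to 1898 lower. For the day 8 minus day 6 difference of effects, where 44 were higher and 36 lower, quantile normalization gave 67 higher, median centring 76 higher, array weights 710 and 680, the replicate block 375 and 273, the 12 arrays of both days 2 and 1, and the 2-fold minimum 26 and 21; without single arrays it was 6 to 594 and 3 to 508. For day 12 minus day 8, with 525 and 512, array weights gave 1752 and 1449, the block 1022 and 948, the 12 arrays 97 and 127, and the 2-fold minimum 103 and 85; without single arrays it was 248 to 966 higher and 287 to 941 lower. The other alternatives stayed within 1.5 times. Fewer arrays leave fewer degrees of freedom in the fits of 6 or 12 arrays; for the other settings the cause was not tested. The array weights did not converge fully. Of 192 named genes called, 0 reversed; 121 were lost without treated replicate 1, 111 without untreated replicate 2, 84 without treated replicate 3, 46 without untreated replicate 3, 14 without untreated replicate 1 and 1 without treated replicate 2, while 13 or fewer were lost under the filter, centring, normalization, probe set, prior, weight and block alternatives, and all 192 with the day 8 arrays alone. The filter took some of the 272 named genes out before the fit, and these were not counted as lost. Of those it kept, 230 were called or not called as before and 8 gained a call. The block lost 2 and added 32. Reversals were seen in 5 genes that were not called: Nes (-0.166 to 0.082 over the fits that left out an array), at 0.082 without treated replicate 2, 0.010 without untreated replicate 2 and 0.021 without untreated replicate 3; Id3 (-0.004 to 0.163) at -0.004 without untreated replicate 2; Mixl1 (-1.114 to 0.063) at 0.063 without treated replicate 1; Rcan1 (-0.034 to 0.118) at -0.034 and -0.011 without treated replicate 1 and untreated replicate 2; and Nfatc1 (-0.129 to 0.021) at 0.008 with array weights, 0.021 without treated replicate 2 and 0.012 without untreated replicate 3.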
